A study of Homo sapiens with 2 samples.

Results

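DNA methylation was measured across 10 genes of the ADAMTS metalloprotease family, ADAMTS1, ADAMTS2, ADAMTS3, ADAMTS4, ADAMTS5, ADAMTS8, ADAMTS9, ADAMTS12, ADAMTS15 and ADAMTS18, out of 20162 protein-coding genes annotated on GRCh37. The genes were taken by name, with earlier results of these data known, and no methylation value entered the choice of a CpG dinucleotide. The study had already listed ADAMTS5 among genes less methylated at the promoter and more expressed in OCI-AML3 than in AML5. It also gave quantitative reverse transcription PCR primers for ADAMTS5. The paper used that assay on genes whose promoters it found less methylated in primary leukemia samples with DNMT3A mutations. No patient sample was used here. Counts over these genes are therefore not those of an unselected set. For each gene, the promoter window reached 2000 bp upstream and downstream of the outermost 5′ transcription start site (TSS), and the gene body was the remainder of the gene downstream of that window. Together these regions held 15621 of the 28217448 CpG dinucleotides listed in each table. The samples were 2 established human acute myeloid leukemia (AML) cell lines, both grown in DMEM with serum. OCI-AML3 is a DNMT3A mutant line with the mutation on one allele, and AML5, also written OCI-AML5, is wild type for this DNA methyltransferase. Each line gave 1 library, so that DNMT3A status and any other difference between these unrelated lines cannot be told apart. In whole-genome bisulfite sequencing (WGBS), unmethylated cytosines are read as thymine, and the methylation level of a CpG is the percentage of its calls that are methylated.

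ADAMTS proteins are secreted zinc metalloproteases that carry thrombospondin-type repeats, and they act in the extracellular matrix. ADAMTS1, ADAMTS4, ADAMTS5, ADAMTS8, ADAMTS9 and ADAMTS15 cleave proteoglycans such as aggrecan and versican, ADAMTS2 and ADAMTS3 remove the amino-terminal propeptide of fibrillar procollagens, ADAMTS12 cleaves cartilage oligomeric matrix protein (COMP), and ADAMTS18 is an orphan member whose substrates are less well known. In most tissues, dense clusters of CpG dinucleotides at a TSS are largely unmethylated, whereas the bodies of genes are largely methylated.

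Calls totalled 902802339 for OCI-AML3 and 894828667 for AML5, and the median CpG had 27 and 30. At these depths, 3 calls, taken as the smallest detectable number, amount to 11.1% of a single CpG for OCI-AML3 and 10.0% for AML5. Over all nuclear CpG dinucleotides with more than 5 reads, the mean was 67.6% for OCI-AML3 against 75.2% for AML5. Mean promoter depth was higher in OCI-AML3 for all 10 ADAMTS genes, with 37.8 to 73.1 calls per CpG against 28.2 to 57.3 in AML5, and the part of this difference in the results was not tested. Intervals and P-values cover read sampling only. Calls at neighbouring CpG dinucleotides can come from the same read, so intervals of pooled calls can be too narrow even for that. A C-to-T sequence variant is also read as an unmethylated cytosine, and in these tables it cannot be told apart from missing methylation. As a check of the labelled origin, the promoter of the myeloid regulator SPI1 was at 11.5% in both lines, whereas that of the neutrophil peroxidase gene MPO was at 93.2% in OCI-AML3 against 90.3% in AML5. PTPRC was at 19.9% and 20.8%, CD33 at 36.5% and 32.3%, and LYZ at 75.5% and 71.2%. MPO and LYZ were not below the range of the 6 T, B, epithelial and liver promoters given further on. These promoters therefore did not establish the labelled origin. The 5 blood and myeloid promoters examined differed by at most 4.27 percentage points between the lines, which does not bear on origin.

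The following 3 stretches of 300 bp were chosen, after their values were seen, as examples of contrasts in both directions upstream of a TSS, and are written 5′ to 3′ on the strand of the gene, in GRCh37. Capitals mark CpG dinucleotides that differed between the lines in Fisher's exact test. The ADAMTS5 stretch, chr21:28339938-28340237 on the minus strand, ran from -830 to -531 bp relative to the TSS, and all 30 of its CpG dinucleotides were hypomethylated in OCI-AML3, with mean levels of 0.20% in OCI-AML3 against 85.4% in AML5. The ADAMTS2 stretch, chr5:178772495-178772794 on the minus strand, ran from -332 to -33 bp, and 32 of its 43 tested CpG dinucleotides were hypomethylated, with means of 0.19% and 40.9%. The ADAMTS3 stretch, chr4:73434939-73435238 on the minus strand, ended immediately before the TSS and showed the opposite direction, with 30 of 34 CpG dinucleotides more methylated in OCI-AML3 and means of 54.8% and 7.57%.
ADAMTS5: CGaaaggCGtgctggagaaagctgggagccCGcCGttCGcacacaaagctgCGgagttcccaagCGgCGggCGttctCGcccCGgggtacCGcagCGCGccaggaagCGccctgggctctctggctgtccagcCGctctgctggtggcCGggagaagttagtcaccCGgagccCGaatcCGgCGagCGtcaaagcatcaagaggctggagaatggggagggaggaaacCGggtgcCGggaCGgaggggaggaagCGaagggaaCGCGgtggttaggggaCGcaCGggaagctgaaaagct
ADAMTS2: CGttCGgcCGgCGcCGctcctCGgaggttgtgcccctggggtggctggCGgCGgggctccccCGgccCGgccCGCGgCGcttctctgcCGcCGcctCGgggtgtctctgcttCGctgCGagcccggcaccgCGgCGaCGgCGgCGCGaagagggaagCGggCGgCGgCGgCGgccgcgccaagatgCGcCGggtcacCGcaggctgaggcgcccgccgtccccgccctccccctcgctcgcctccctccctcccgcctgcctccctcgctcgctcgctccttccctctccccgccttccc
ADAMTS3: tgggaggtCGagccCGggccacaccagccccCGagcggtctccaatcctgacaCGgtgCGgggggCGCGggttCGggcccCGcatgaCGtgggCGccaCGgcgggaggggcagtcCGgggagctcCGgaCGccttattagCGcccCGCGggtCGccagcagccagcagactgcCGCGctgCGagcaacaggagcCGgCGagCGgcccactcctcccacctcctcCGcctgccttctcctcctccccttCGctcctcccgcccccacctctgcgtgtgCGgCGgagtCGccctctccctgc

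Over the full window of 2000 bp on either side, promoter means of the ADAMTS genes were not shifted in 1 direction. The mean over the window was lower in OCI-AML3 for 5 genes and higher for the other 5, whereas 15.3% of all promoters were higher. The increases were at most 10.38 points, and those of ADAMTS12 and ADAMTS15 were only 0.39 and 1.7 points. This split depended on the window. With the upstream 2000 bp alone, the sign turned to lower for ADAMTS8, ADAMTS12, ADAMTS15 and ADAMTS18 and to higher for ADAMTS1. The median difference, OCI-AML3 minus AML5, was -1.21 percentage points, against -4.69 over the 19667 promoters with at least 10 CpG dinucleotides. The promoters of ADAMTS5, ADAMTS2 and ADAMTS9 were lower by more than 20 percentage points, a difference met by 8.61% of all promoters. None of the 10 was higher by more than 20 points, which 1.79% of all promoters were. With 1 library per line, no test of these counts against variation between cultures could be made.

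**Figure D1:**
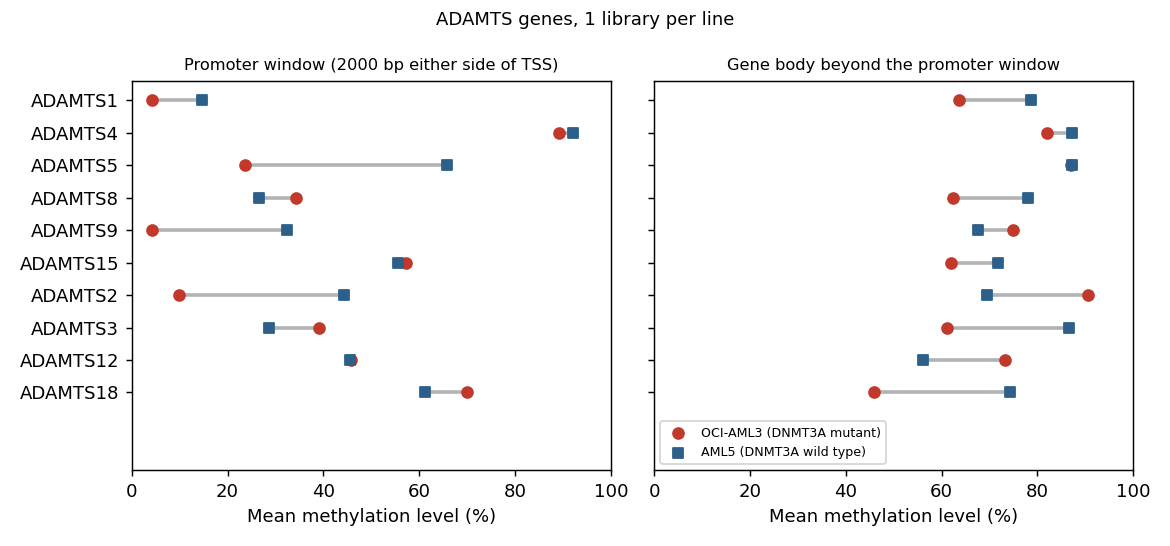
Mean methylation level (%) of the promoter window (left) and the gene body (right) of each ADAMTS gene in OCI-AML3 (circles) and AML5 (squares), with a grey line joining the lines and 1 library per point. The widest promoter gaps were at ADAMTS5 (23.6% against 65.7%), ADAMTS2 (9.82% against 44.2%) and ADAMTS9 (4.29% against 32.4%). The promoter points of ADAMTS4, ADAMTS12 and ADAMTS15 nearly coincided.

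At the level of single CpG dinucleotides, 594 of the 1707 tested in the promoter windows were called lower in OCI-AML3 (34.8%, against 13.1% of the CpG dinucleotides in all promoters) and 203 higher (11.9%, against 5.1%). Most of the decreases lay in a few genes, with 209 in ADAMTS2, 142 in ADAMTS5, 83 in ADAMTS9 and 70 in ADAMTS1. In the gene bodies, 1436 of 12615 CpG dinucleotides were called lower (11.4%, against 13.1% in all gene bodies) and 2728 higher (21.6%, against 3.0%). The gene body increases were dominated by ADAMTS2, with 1757, and ADAMTS12, with 711. Calls are from a two-sided Fisher's exact test with Benjamini–Hochberg adjustment over 24454751 CpG dinucleotides at 0.05.

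Of the proteoglycan-cleaving genes, ADAMTS5, which encodes a major aggrecanase, had the widest promoter difference. Its window (TSS at 28339407 on chromosome 21, 214 CpG dinucleotides) averaged 23.6% in OCI-AML3 against 65.7% in AML5, differing by -42.07 percentage points. Pooled calls were methylated in 24.7% of 10211 in OCI-AML3 (Wilson 95% interval 23.9 to 25.6) and 69.8% of 7026 in AML5 (68.7 to 70.9). The 2 lines shared the same outline, with methylated outer edges and an unmethylated centre, but the unmethylated stretch was wider in OCI-AML3. In the first 500 bp downstream of the TSS both lines were low, at 0.32% and 8.08%. Between 1000 and 500 bp upstream, OCI-AML3 was at 4.60% and AML5 at 85.8%, and between 500 and 1000 bp downstream they were at 8.69% and 59.9%. Farther upstream, between 2000 and 1500 bp, OCI-AML3 was at 93.4% and AML5 at 93.0%, over 3 CpG dinucleotides. A run of 38 consecutive CpG dinucleotides was hypomethylated upstream (chr21:28339844-28340305, 0.29% against 83.3%), and 7 further runs lay within exonic sequence downstream of the TSS. In the widest of these exonic runs (chr21:28337857-28338126, 35 CpG dinucleotides), OCI-AML3 was partly methylated, at 37.7%, and AML5 was at 95.7%. The CpG with the largest decrease, at position 28340139, had 0 methylated calls of 57 in OCI-AML3 and 31 of 31 in AML5 (Fisher's exact test, adjusted P = 8.5e-22). No CpG of this promoter was called higher in OCI-AML3. The rest of the gene did not share the contrast, since the gene body was at 87.1% in OCI-AML3 against 87.3% in AML5.

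ADAMTS1, the neighbouring gene on chromosome 21 with its TSS 121679 bp from that of ADAMTS5, had a mostly unmethylated promoter in both lines. Its 253 CpG dinucleotides averaged 4.17% in OCI-AML3 against 14.7% in AML5, and pooled calls gave 4.76% (4.39 to 5.17) and 15.7% (15.0 to 16.5). The low methylation in AML5 was spread over the start of the gene, with 25.3% between 500 and 1000 bp downstream of the TSS, where OCI-AML3 was at 0.18%. All 6 hypomethylated runs of this window lay in exonic sequence, and the longest by CpG number (chr21:28216760-28216838, 12 CpG dinucleotides) was at 0.23% in OCI-AML3 against 45.4% in AML5. The outer edge of the window went the other way. A run of 14 CpG dinucleotides from -2190 to -1706 bp (chr21:28219434-28219918) was at 86.0% in OCI-AML3 against 23.2% in AML5, and the CpG at position 28219434 had 27 methylated calls of 29 against 1 of 37 (Fisher's exact test, adjusted P = 3.9e-13). The gene body was lower in OCI-AML3, at 63.6% against 78.7%, with a hypomethylated run just beyond the window (chr21:28214608-28215207, 14 CpG dinucleotides, 8.95% against 78.5%). Between the ADAMTS1 promoter window and the end of ADAMTS5, 415 CpG dinucleotides averaged 84.1% in OCI-AML3 against 81.5% in AML5, with 15 called lower and 24 higher.

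ADAMTS9, which encodes a versican-cleaving protease, had a promoter that was nearly unmethylated in OCI-AML3. The mean over 176 CpG dinucleotides was 4.29% in OCI-AML3 against 32.4% in AML5, differing by -28.07 percentage points, and pooled calls gave 2.55% (2.22 to 2.93) and 26.4% (25.2 to 27.7). In OCI-AML3, 168 CpG dinucleotides were below 20%, against 65 in AML5, in which a further 86 lay between 20% and 66%. The largest gap was at the start of the gene, where the first 500 bp averaged 1.63% in OCI-AML3 against 47.0% in AML5. Depth in these 500 bp was only 16.4 calls per CpG in AML5, against 34.2 in OCI-AML3. A short exonic run (chr3:64673426-64673471, 8 CpG dinucleotides) was at 1.48% in OCI-AML3 against 94.0% in AML5. Few reads covered at least part of this run, with 7 calls at position 64673426 in AML5 and 14 in OCI-AML3. No promoter CpG was called higher. The gene body had the opposite direction, with 74.96% in OCI-AML3 against 67.7% in AML5 and 186 of 1315 CpG dinucleotides called higher against 77 lower. The antisense RNA gene ADAMTS9-AS2 overlapped the promoter window, and calls were not assigned to either gene.

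ADAMTS4, which encodes another aggrecanase, had a methylated promoter in both lines. Its window held 61 tested CpG dinucleotides, at 89.2% in OCI-AML3 against 92.0% in AML5, with 5 called lower and none higher. The observed-to-expected CpG ratio of this window, 0.189, was the lowest of the 10, and the others ranged from 0.309 at ADAMTS12 to 0.772 at ADAMTS1. The gene body was at 82.1% and 87.1%, with 23 of 189 CpG dinucleotides called lower and 3 higher. Its 2 hypomethylated runs were at 21.4% against 83.3% (chr1:161161951-161162097, 5 CpG dinucleotides) and at 26.1% against 83.3% (chr1:161154636-161154768, 3 CpG dinucleotides).

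ADAMTS8 and ADAMTS15 lie in opposite orientation on chromosome 11 with their TSSs 20036 bp apart. Both encode proteoglycan-cleaving proteases. The ADAMTS8 promoter (182 CpG dinucleotides) averaged 34.2% in OCI-AML3 against 26.5% in AML5, with 44 CpG dinucleotides called higher and 22 lower. The increases were concentrated 500 to 1000 bp downstream of the TSS, at 52.0% against 21.3%, where an exonic run of 21 CpG dinucleotides (chr11:130297812-130297951) was at 66.4% in OCI-AML3 against 13.8% in AML5. Close to the TSS, in the first 500 bp, the means were 14.2% and 13.1%. The CpG with the largest increase, at position 130297898, had 48 methylated calls of 49 against 4 of 38 (Fisher's exact test, adjusted P = 2.3e-16). Farther into the gene, an intronic run of 7 CpG dinucleotides was also lower in OCI-AML3 (chr11:130297159-130297201, 42.5% against 96.9%).

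In the ADAMTS15 promoter (205 CpG dinucleotides) the means were 57.3% and 55.7%, but the near-equal averages hid calls in both directions, with 32 CpG dinucleotides lower and 46 higher in OCI-AML3. The TSS itself lay in a trough, with 10.5% in OCI-AML3 against 19.9% in AML5 over the 500 bp upstream. A run of 4 CpG dinucleotides 223 to 248 bp into the gene was at 7.95% against 61.6%, whereas a run of 7 farther in (chr11:130320107-130320192, intronic) was at 82.9% against 32.0%. Both gene bodies were less methylated in OCI-AML3. The ADAMTS8 body was at 62.4% against 78.0%, and the ADAMTS15 body at 62.0% against 71.7%. Between the windows of these genes, 183 CpG dinucleotides averaged 44.5% in OCI-AML3 against 64.3% in AML5, with 61 called lower and 5 higher.

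**Figure D2:**
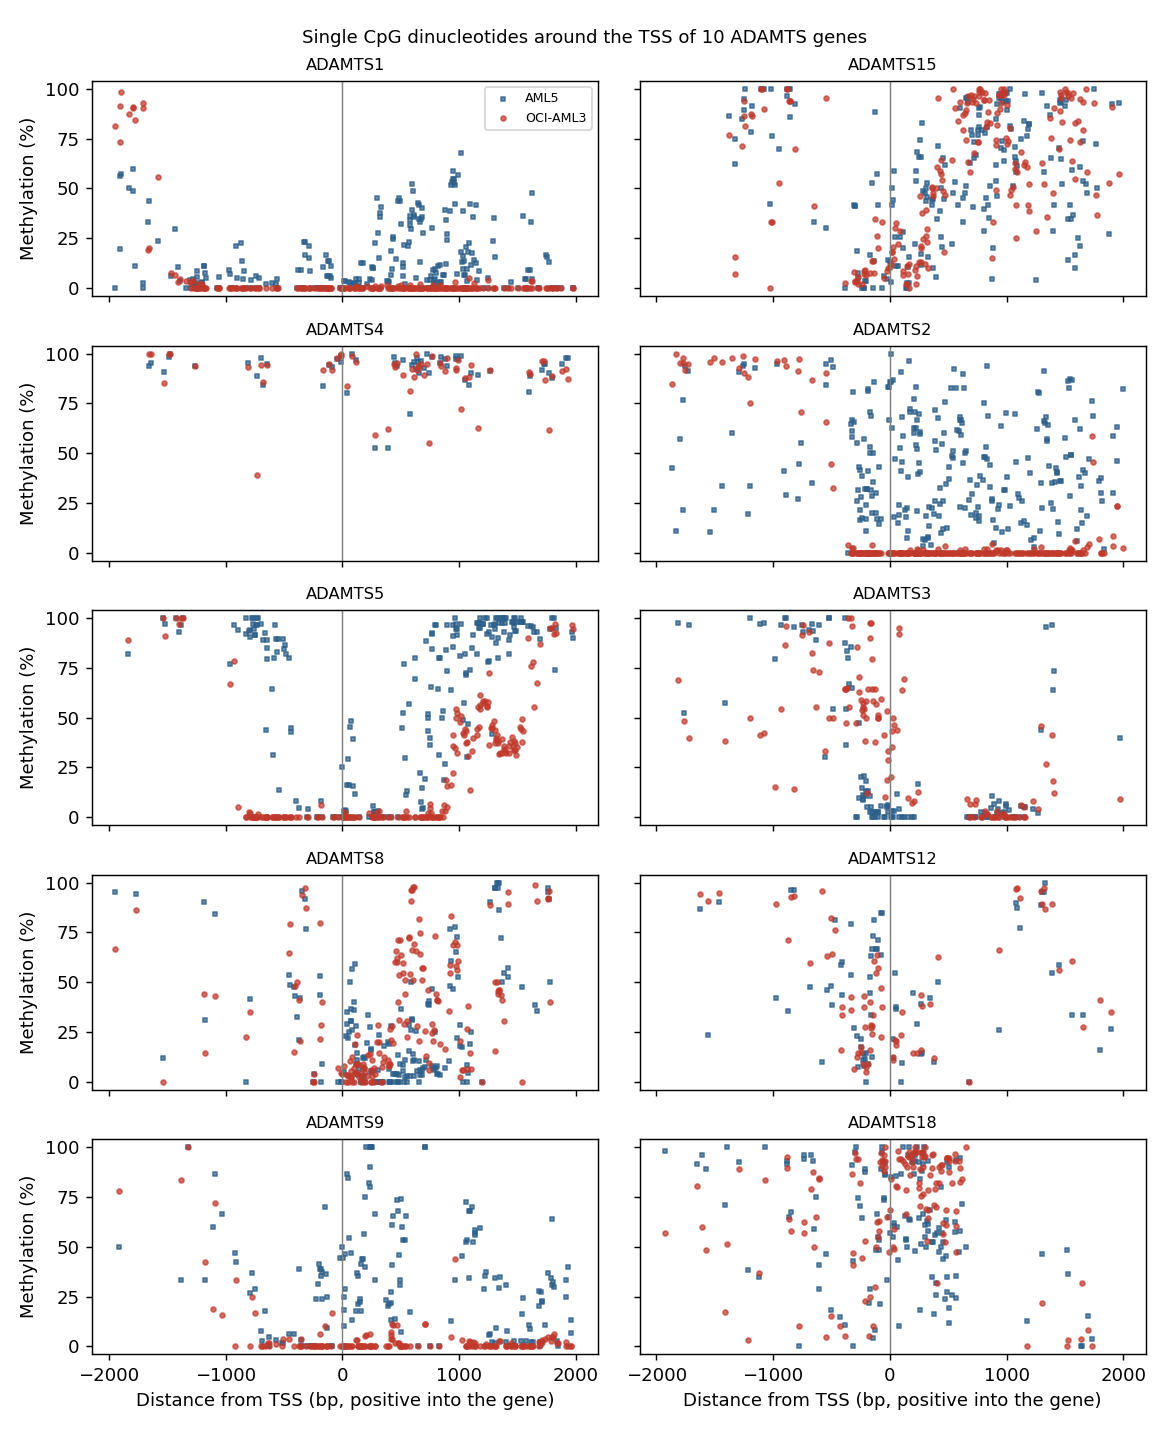
Methylation level (%) of each tested CpG dinucleotide against its distance from the TSS (bp, positive into the gene) in OCI-AML3 (red circles) and AML5 (blue squares), 1 panel per ADAMTS gene and 1 library per line. In OCI-AML3 the points near the TSS of ADAMTS1, ADAMTS2, ADAMTS5 and ADAMTS9 lie close to 0, AML5 points of ADAMTS2 scatter over the whole scale, and the ADAMTS3 points just upstream of the TSS are higher in OCI-AML3.

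Of the procollagen N-propeptidase genes, ADAMTS2, whose loss of function in humans affects collagen maturation in skin, had the most promoter CpG dinucleotides called lower, 209 of 274. The window (TSS at 178772462 on chromosome 5) averaged 9.82% in OCI-AML3 against 44.2% in AML5, differing by -34.42 percentage points. Pooled calls were methylated in 9.47% of 15911 (9.03 to 9.94) and 43.8% of 9773 (42.8 to 44.7). The decrease covered the TSS and the whole downstream side of the window. OCI-AML3 was at 0.93% in the 500 bp upstream and between 0.15% and 0.28% in each of the 3 successive 500-bp bins downstream, whereas AML5 was between 37.1% and 44.7% in these bins. A run across the TSS itself (chr5:178772439-178772478, 8 CpG dinucleotides) was at 0% in OCI-AML3 against 81.7% in AML5. Few AML5 reads covered at least part of this run, with 7 calls at position 178772453 against 30 in OCI-AML3. The longest hypomethylated run, of 32 CpG dinucleotides (chr5:178770862-178771170), spanned exonic and intronic sequence and was at 0.44% and 48.7%.

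Outside this unmethylated stretch, ADAMTS2 was more methylated in OCI-AML3 on both sides. Upstream, between 2000 and 1500 bp before the TSS, the means were 94.8% in OCI-AML3 against 47.2% in AML5, and a run of 11 CpG dinucleotides reaching beyond the window (chr5:178774230-178775165) was at 94.97% against 31.5%. The gene body, 4945 CpG dinucleotides, was at 90.6% in OCI-AML3 against 69.5% in AML5, differing by 21.07 percentage points, with 1757 CpG dinucleotides called higher and 100 lower. It was the only 1 of the 10 bodies higher by more than 20 points, a difference met by 0.541% of all gene bodies. Pooled calls gave 90.9% (90.8 to 91.1) and 69.8% (69.6 to 70.0). The increase ran along the whole gene, since each of 10 equal parts of the body was between 86.0% and 93.8% in OCI-AML3 and between 64.8% and 74.9% in AML5. Introns (68.4% in AML5, 90.3% in OCI-AML3) differed by 21.91 points and exons (82.8% and 94.0%) by 11.20 points. The longest run of increased CpG dinucleotides, 29 in an intron (chr5:178692148-178692763), was at 93.3% against 21.2%. In the 500 kb on either side of the gene the means were 71.7% and 75.4%, the opposite direction to the gene body.

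ADAMTS3, which encodes a propeptidase that also acts in the activation of the lymphatic growth factor VEGF-C, showed the reverse arrangement. Its promoter (121 CpG dinucleotides) was at 39.0% in OCI-AML3 against 28.6% in AML5, and the increase of 10.38 points was the largest among the 10 promoters. Next to the TSS the increase was much wider, with 58.4% against 22.1% in the 500 bp upstream and 42.6% against 2.73% in the first 500 bp downstream. In a run of 15 CpG dinucleotides from -185 to -51 bp (chr4:73434989-73435123) OCI-AML3 was at 64.2% and AML5 at 3.34%. The CpG at position 73435108 had 39 methylated calls of 40 against 1 of 39 (Fisher's exact test, adjusted P = 6.6e-18). Farther upstream, between 1000 and 500 bp, OCI-AML3 was lower, at 66.9% against 90.7%. Downstream, the 24 CpG dinucleotides between 500 and 1000 bp were at 1.82% and 2.35%. The gene body was lower in OCI-AML3 by more than 20 points, at 61.2% against 86.7%, with 381 of 1178 CpG dinucleotides called lower and 3 higher. The ADAMTS3 and ADAMTS18 bodies were the 2 of 10 that met this difference, against 7.58% of all gene bodies. The gap was wider toward the 5′ end of ADAMTS3, with -42.92 points in the first part of the body and -9.26 in the last.

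ADAMTS12, the COMP-cleaving member, had close promoter means of 45.8% in OCI-AML3 against 45.4% in AML5 over 74 CpG dinucleotides, with 13 called higher and 5 lower. Pooled calls gave 61.0% and 49.7%, a wider gap than between the means. The 8 CpG dinucleotides 500 to 1000 bp upstream weigh more in the pooled share, with 141 calls per CpG in OCI-AML3 against 49.4 in AML5, and they were more methylated in OCI-AML3, at 81.0% against 52.7%. The CpG at position 33892705 had 138 methylated calls of 144 against 4 of 40 (Fisher's exact test, adjusted P = 1.4e-24). Like ADAMTS2, ADAMTS12 had a more methylated body in OCI-AML3, at 73.2% against 56.1% (2367 CpG dinucleotides, 711 called higher and 71 lower). The excess was present in each of the 10 parts of the body, from 10.00 to 26.67 percentage points. ADAMTS12 was also the only 1 of the 10 genes whose 500-kb surroundings were more methylated in OCI-AML3, at 81.0% against 77.2%.

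ADAMTS18, the orphan member, had the widest gene body decrease. The body (1331 CpG dinucleotides) was at 45.9% in OCI-AML3 against 74.3% in AML5, differing by -28.44 percentage points, and 532 CpG dinucleotides were called lower against 13 higher. Exons and introns differed by -29.26 and -28.36 points. The gap widened along the gene, from -8.28 points in the first part to -49.75 in the ninth, and was -32.16 in the last. The promoter (147 CpG dinucleotides) had the opposite direction, with 69.9% against 61.2% and 34 CpG dinucleotides called higher against 14 lower. The increase lay downstream of the TSS, at 82.5% against 64.5% in the first 500 bp and 83.6% against 52.9% in the next, whereas beyond 1000 bp upstream OCI-AML3 was lower.

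**Figure D3:**
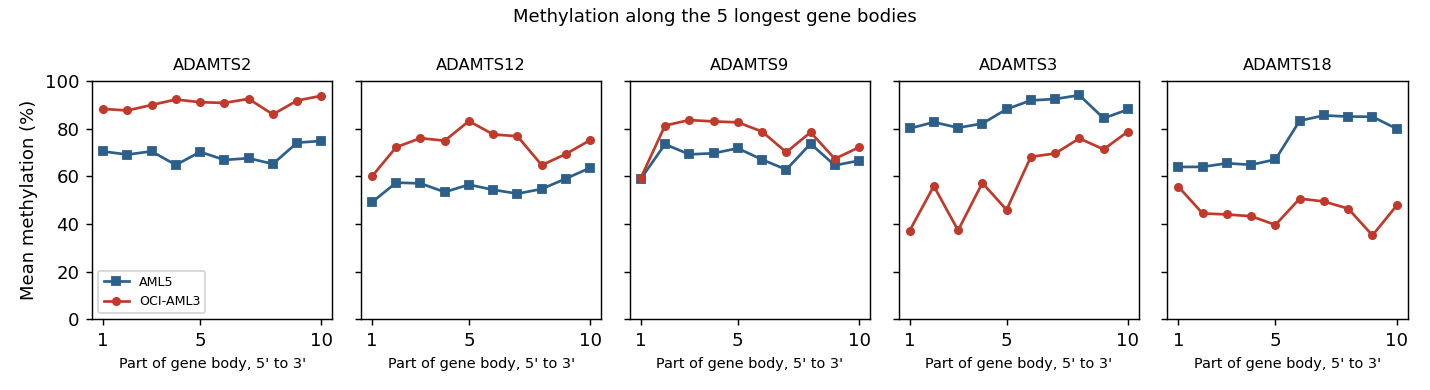
Mean methylation level (%) in 10 successive equal parts of the gene body, from 5′ to 3′. Shown are the 5 longest of the 10 ADAMTS genes studied, in OCI-AML3 (circles) and AML5 (squares), 1 library per line. OCI-AML3 lies above AML5 in every part of ADAMTS2, ADAMTS12 and ADAMTS9, although by only 0.35 points in the first part of ADAMTS9, and below it in every part of ADAMTS3 and ADAMTS18.

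With the main window, promoter and gene body differences had opposite signs in some genes and the same sign in others. The share of all genes with opposite signs was not computed. ADAMTS2 and ADAMTS9 combined a less methylated promoter with a more methylated body in OCI-AML3, and ADAMTS3, ADAMTS8, ADAMTS15 and ADAMTS18 the reverse, whereas ADAMTS1, ADAMTS4 and ADAMTS5 were lower in both regions and ADAMTS12 higher in both. The ADAMTS5 body difference was only -0.24 points and its sign depended on the averaging. The promoter signs of ADAMTS1, ADAMTS8, ADAMTS12, ADAMTS15 and ADAMTS18 turned with the upstream 2000 bp alone, so their grouping here depends on the window. Over the 10 bodies the median difference was -7.38 points, with 7 lower and 3 higher, against -4.93 over 18292 gene bodies, of which 7.08% were higher in OCI-AML3. The 500-kb surroundings were less methylated in OCI-AML3 for 9 of the 10 genes, with differences from -14.16 to -1.07 points. These are not separate stretches for each gene. The surroundings of ADAMTS1 and ADAMTS5 overlap largely, as do those of ADAMTS8 and ADAMTS15. Over all nuclear CpG dinucleotides the means were 67.6% in OCI-AML3 against 75.2% in AML5, and the share of all genes with lower surroundings was not computed.

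**Figure D4:**
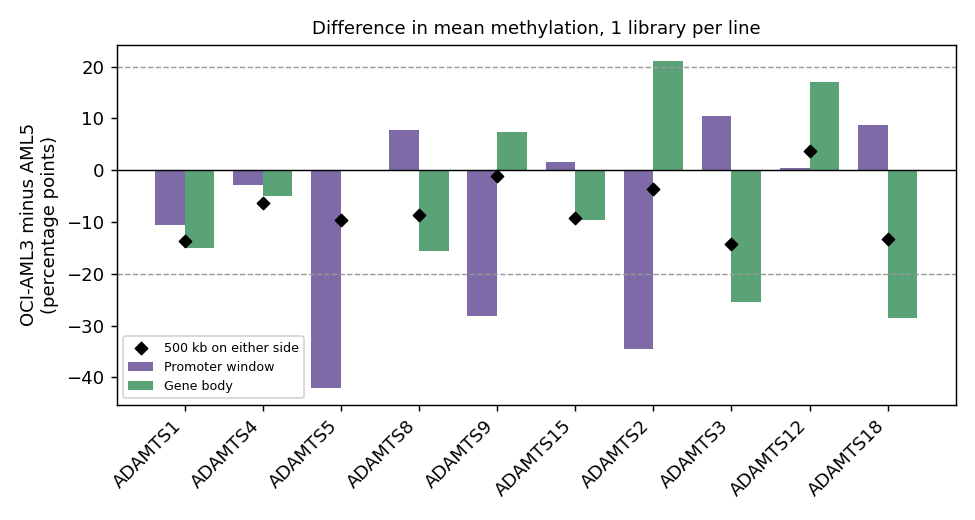
Difference in mean methylation, OCI-AML3 minus AML5 (percentage points), for the promoter window and the gene body of each ADAMTS gene (bars) and for the 500 kb on either side (diamonds), with dashed lines at 20 points either way and 1 library per line. The ADAMTS5, ADAMTS2 and ADAMTS9 promoter bars and the ADAMTS3 and ADAMTS18 body bars extend below the lower line, and the ADAMTS2 body bar extends above the upper one.

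Some called CpG dinucleotides lay together. Neighbouring ones can share reads, and the share that lay together was not computed for these genes or for the genome. With runs defined as at least 3 consecutive tested CpG dinucleotides called in 1 direction, at most 300 bp apart, the 10 genes held 185 runs lower and 286 runs higher in OCI-AML3, while the whole genome held 282640 lower and 51223 higher. ADAMTS2 contributed 199 of the higher runs in its body and ADAMTS12 a further 49. ADAMTS18 had 62 lower runs in its body and none higher, and ADAMTS3 had 31 and none. In the promoters, lower runs were most numerous in ADAMTS2, with 15 that held 198 CpG dinucleotides, and the 8 of ADAMTS5 held 132.

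The call of a promoter decrease depended on the window for a pair of genes. With the 2000 bp upstream of the TSS alone, ADAMTS5 differed by -54.54 points, but ADAMTS2 by -15.53 and ADAMTS9 by -13.80. The ADAMTS2 gene body difference was 18.65 points when the whole gene from the TSS was averaged and 11.20 points over exons alone, and that of ADAMTS3 was -17.92 points over exons. Averaged over the whole gene, the body difference was 3.68 points for ADAMTS9, -9.12 for ADAMTS8, -5.93 for ADAMTS15 and -12.93 for ADAMTS5. It was 4.62 points for ADAMTS9 by pooled calls, -5.24 for ADAMTS15 over exons, and -7.70 for ADAMTS1 and -3.38 for ADAMTS4 over introns. With 1000 bp on either side of the TSS, the promoter difference was 18.42 points for ADAMTS3, 12.83 for ADAMTS8 and 2.72 for ADAMTS15. The sign of the promoter difference turned with the upstream sequence alone for ADAMTS1 (1.57 points), ADAMTS8 (-0.63), ADAMTS12 (-1.97), ADAMTS15 (-10.65) and ADAMTS18 (-4.31).

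Genes that act with these proteases were compared in the same way. Over all genes, 8.61% of promoters and 7.58% of gene bodies were lower by more than 20 points, and 0.541% of gene bodies were higher by that much. In either direction of any size, 15.3% of all promoters and 7.08% of all gene bodies were higher in OCI-AML3. The counts of these lists were not tested against those shares. Among the 9 other ADAMTS protease genes, 1 promoter was lower by more than 20 points (ADAMTS10, 29.4% in OCI-AML3 against 54.0% in AML5) and none was higher, and the median difference was -1.36. Their gene bodies were all lower in OCI-AML3, with a median of -10.65 and with ADAMTS19 (42.7% against 65.1%) and ADAMTS6 (67.6% against 89.5%) past 20 points. Of 7 ADAMTS-like genes, which encode related proteins without the protease domain, 1 promoter was lower past 20 points (PAPLN, 32.8% against 58.1%), and the median was -2.54. The bodies of 3 of these 7 were more methylated in OCI-AML3, with ADAMTSL3 at 70.4% against 59.0% and THSD4 at 72.4% against 62.8%, and the median was -4.34. Of 15 genes for matrix and plasma substrates, 14 had at least 10 promoter CpG dinucleotides, their median was -9.62, and the promoter of the fibrillar collagen gene COL3A1 was lower past 20 points, at 63.2% against 88.6%. The substrate bodies had a median of -11.56, and the widest decreases were at COL3A1, 33.6% against 87.2%, and COL1A2, 41.1% against 82.5%. Of 5 genes for inhibitors and clearance receptors, the promoter of the metalloprotease inhibitor gene TIMP4 was at 67.6% against 93.0% and the body of TIMP3 was at 84.9% against 63.1%, with a promoter median of -4.86. The 4 convertase genes, which encode enzymes that remove the inhibitory propeptide, had no region past 20 points and a promoter median of -4.45. Promoters of 6 genes of T, B, epithelial and liver cells were between 62.0% and 90.5% in OCI-AML3 and between 69.6% and 95.1% in AML5. All 6 were lower in OCI-AML3, with a median of -10.46 points, and the liver gene ALB was past 20 points in its promoter (72.8% against 95.1%) and its body (56.5% against 89.8%).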

How the data were processed

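Genomic DNA of OCI-AML3 and AML5 was subjected to WGBS by the authors, 1 library per line, who aligned the paired-end reads to hg19 (GRCh37) and called methylation with Bismark; the submitters' processing notes also name Bowtie 0.12.8. For every CpG dinucleotide the deposited tables give raw read counts, methylated and unmethylated, summed over both strands, neither smoothed nor normalized. Removal of duplicate reads is not stated in the sources used here. The tables carry no header; the methylated column was identified from the mitochondrial genome, where it held 0.169% of calls in OCI-AML3 and 0.101% in AML5. The listed position is the G of each CpG, and coordinates here are those of the C, counted from 1. A further 54472 entries fell on unknown bases of the reference.

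Levels were computed where both lines had more than 5 reads and averaged over CpG dinucleotides, for GENCODE release 44 genes lifted to GRCh37 and regions with at least 10 CpG dinucleotides. Single CpG dinucleotides were compared by a two-sided Fisher's exact test, adjusted by Benjamini–Hochberg over all nuclear CpG dinucleotides, and the test was checked on simulated data. The smoothing used in the study was not repeated. The 10 genes and all gene lists were chosen with earlier results of these data known. All 10 genes were named, with, per promoter, CpG dinucleotides of the largest decrease or increase, and from the lists at most the lowest and highest 2; not all of these are printed. Alternatives covered read minimum, averaging, thresholds, windows, TSS, parts of the gene body, the test and the definition of runs. Calculations used Python 3.11.15 with scipy 1.17.1, numba 0.67.0, numpy 2.4.6, pandas 2.3.3 and, for figures, matplotlib 3.10.9.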

Additional observations from a re-analysis of the deposited data

How the results depend on the processing

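No paired analysis was possible because each line had 1 library, and no library could be left out. Of 56 counts recomputed under another setting, 45 were within 1.5 times the reported count. The 3 promoters lower by more than 20 percentage points became 1 with the upstream 2000 bp alone, and the 0 promoters higher became 1 at a threshold of 10 points. The 2 gene bodies lower by more than 20 points became 1 over exons only, 4 at 10 points and 0 at 30 points. The 1 gene body higher became 0 with the whole gene, 0 over exons only, 2 at 10 points and 0 at 30 points. With at least 5 CpG dinucleotides per run, the 185 lower runs became 63 and the 286 higher runs 75. Of 120 gene-level differences, 112 kept their sign. The other 8 changed it. With the upstream 2000 bp alone these were ADAMTS1 (1.57 points), ADAMTS8 (-0.63), ADAMTS15 (-10.65), ADAMTS12 (-1.97) and ADAMTS18 (-4.31), and with 1000 bp on either side ADAMTS12 (-2.74). The ADAMTS5 gene body difference was 1.00 by pooled calls and 1.62 over exons. The cause was not tested. The effect of depth on the means over windows was not tested, and the ADAMTS12 promoter difference went from 0.39 to 11.30 points when calls were pooled.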

Other observations

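CpG dinucleotides at intermediate levels, between 20% and 66%, were more numerous in AML5 in 5 of the 10 promoters and 5 of the 10 gene bodies, and more numerous in OCI-AML3 in the others. In the ADAMTS2 promoter, 154 of 274 CpG dinucleotides were intermediate in AML5 and 7 in OCI-AML3, and in the ADAMTS9 promoter 86 of 176 and 4. The ADAMTS1 promoter had 72 intermediate CpG dinucleotides in AML5 and 2 in OCI-AML3. The bodies with more in AML5 included ADAMTS2, with 1253 of 4945 against 176, and ADAMTS9, with 455 of 1315 against 210. The ADAMTS5 and ADAMTS3 promoters had the reverse order, with 32 and 13 intermediate CpG dinucleotides in AML5 and 71 and 52 in OCI-AML3. The bodies with more in OCI-AML3 included ADAMTS18, with 379 of 1331 against 233, ADAMTS3, with 272 of 1178 against 100, and ADAMTS8, with 115 of 433 against 87.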
